A study of Thermothelomyces thermophilus ATCC 42464 with 8 samples.

Results

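The genes described here are 5 endoxylanase genes of the thermophilic filamentous fungus Myceliophthora thermophila, of 9110 genes in the count table. Of these, 4 belong to glycoside hydrolase family GH11 (MYCTH_100068, also Xyl7; MYCTH_89603, also Xyl6 or Xyn1; MYCTH_49824; MYCTH_99786) and 1 to GH10 (MYCTH_112050, also Xyl3 or Xyn2). Not among them is MYCTH_116553, a further GH10 gene of the same study list, described below. The 5 genes were taken from that list, which the study drew up on these same libraries, of genes higher than in the starting strain. Their values against that strain are therefore given as a description without a test, and all 5 were among the 8335 genes that passed the filter on low counts.

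The series holds 8 RNA-seq libraries, 2 per strain for 4 strains. Mycelium was grown for 24 h with 2% glucose and moved for 4 h to 1% d-xylose, at 45 °C and 150 rpm. JG207, the starting strain, overexpresses a malate transporter gene (Aomae) and a pyruvate carboxylase gene (Aopyc), and all the other strains derive from it. DF1102 is JG207 without Mtxyl1, which encodes d-xylose reductase, the first enzyme of oxo-reductive d-xylose use. DF1406 also lacks Mtxyl1 and carries overexpressed Mtxyd1, xylD, xylX and xylA, genes of the Weimberg pathway, which oxidises d-xylose to 2-oxoglutarate. DF1501 lacks Mtxyl1 as well and carries Mtxyd1, xylD, BxxylX and KsaD. Both Weimberg strains hold multicopy cassettes at random genomic sites, with the tef promoter on Mtxyd1 and the gpdA promoter on xylD. Levels are given as RPKM (reads scaled by gene length and library total), which may be compared between genes, and strains were compared on read counts in edgeR.

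Endoxylanases are secreted enzymes that cut the inner bonds of xylan, the main hemicellulose of many plant cell walls, into short oligosaccharides. GH11 enzymes are small and favour stretches of xylan with few side groups, whereas GH10 enzymes also cut closer to substituted sugars and leave shorter products. In filamentous fungi such genes are commonly induced by xylan or d-xylose through the zinc cluster regulator known as XlnR or XYR-1. The CBM1 module found on some of these proteins binds cellulose and holds the enzyme on the plant cell wall.

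Depth was even, at 20727346 to 21408353 counts per library, and TMM scaling factors lay between 0.954 and 1.05. Mtxyl1 (MYCTH_43671), the deleted gene, stood at 1676 and 1773 RPKM (JG207), 412 and 383 (DF1102), 102 and 109 (DF1406) and 252 and 228 (DF1501). It was thus lower in each deletion strain but not at 0, and counts over a whole gene do not show which stretch the remaining reads came from. The 2 DF1501 libraries stood further apart than those of any other strain. Their root mean square deviation over genes was 0.202 on the log2 scale against 0.137 to 0.155 in the other strains, and 174 genes were at least 2-fold higher in replicate 1 and 87 in replicate 2. On the first principal component, with 69.2% of the variance, they lay at 4.76 and -15.7, between DF1406 (16.6 and 17.1) and JG207 (-50.1 and -50.9), while DF1102 lay at 38.4 and 39.8. Values of DF1501 are therefore given library by library, replicate 1 first as for every strain.

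All 5 endoxylanase genes stood higher in both libraries of DF1102, DF1406 and DF1501 than in either library of JG207. Against JG207 the median log2 fold change of the 5 genes was 4.89 in DF1102, 5.29 in DF1406 and 3.72 in DF1501, beside medians of -0.01, -0.05 and -0.01 over all genes tested. The median in DF1501 was 2.45 without DF1501 replicate 1 and 4.51 without replicate 2. These 3 comparisons share the JG207 libraries. Over all tested genes, 10.2% were called higher in DF1102 than in JG207, 7.13% in DF1406 and 4.69% in DF1501 (an edgeR adjusted p up to 0.05 with a minimum fold of 2). Nothing is read from those shares for the 5 genes, since the same contrast chose them. Together they took 0.0288% and 0.0241% of the counts of the JG207 libraries, 0.870% and 0.785% for DF1102, 0.989% and 0.904% for DF1406, and 0.605% and 0.116% for DF1501.

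**Figure D1:**
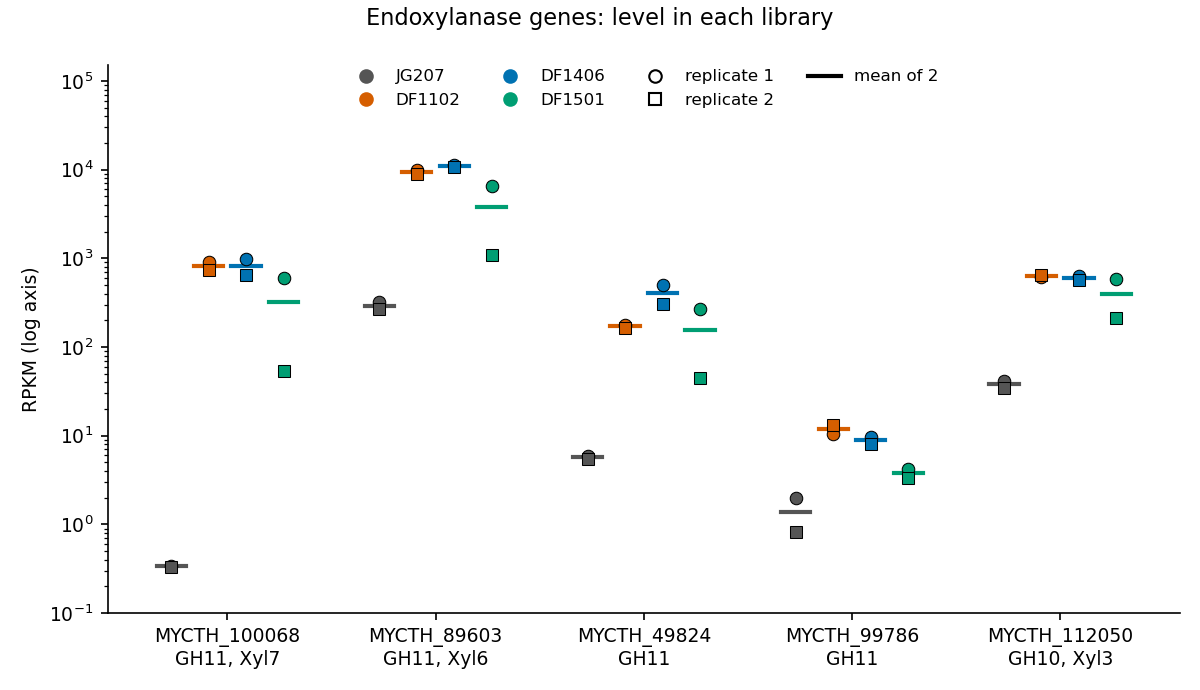
Level of each endoxylanase gene in each of the 8 libraries, as RPKM on a log axis, with strains by colour, replicate 1 as circles, replicate 2 as squares and the mean of the 2 libraries as a bar. The JG207 libraries are lowest for every gene, and the DF1501 libraries are far apart for 4 of the 5 genes, as for MYCTH_100068 at 595 and 54 RPKM.

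MYCTH_89603 (Xyl6), a GH11 enzyme listed without a binding module, was the most abundant of the 5 in every library. It stood at 318 and 266 RPKM (JG207), 9970 and 8914 (DF1102), 11266 and 10760 (DF1406) and 6520 and 1093 (DF1501). Among all genes of the table its rank by RPKM went from 410 and 464 in JG207 to 4 and 7 (DF1102), 3 and 4 (DF1406) and 5 and 101 (DF1501). It made up between 77.5% and 87.5% of the summed RPKM of the 5 genes, so the sum mostly follows this gene. The log2 fold change against JG207 was 5.0 (SE 0.74) in DF1102, 5.29 (SE 0.75) in DF1406 and 3.72 (SE 0.69) in DF1501.

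MYCTH_100068 (Xyl7), a GH11 enzyme listed with a CBM1 module, had the widest range. It was nearly unread in JG207, with 6 counts in each library (0.344 and 0.335 RPKM). It stood at 918 and 733 RPKM (DF1102), 991 and 647 (DF1406) and 595 and 54 (DF1501). In the order by RPKM within a strain it was last of the 5 in JG207 and the second in DF1102, DF1406 and replicate 1 of DF1501. In replicate 2 of DF1501 it came after MYCTH_112050. The ratio of its reads in DF1102 to JG207, 29099 against 12 counts, was 2435 with an exact 95% interval of 1390 to 4710, which covers counting error only. The fitted log2 fold change against JG207 was 11.21 (SE 1.36) in DF1102, 11.26 (SE 1.36) in DF1406 and 9.91 (SE 1.33) in DF1501.

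MYCTH_49824, a GH11 gene without a given enzyme name, had the highest ratio of DF1406 to DF1102 of the 5, at 2.37 between the mean RPKM values. It stood at 5.95 and 5.53 RPKM (JG207), 177 and 164 (DF1102), 499 and 309 (DF1406) and 266 and 44.5 (DF1501). The log2 fold change against JG207 was 4.89 (SE 0.77) in DF1102, 6.19 (SE 0.80) in DF1406 and 4.78 (SE 0.77) in DF1501.

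MYCTH_99786, the fourth GH11 gene, was low throughout, and its rows rest on few reads. It had between 12 counts, in JG207, and 188 counts, in DF1102. In RPKM this was 1.97 and 0.823 (JG207), 10.3 and 13.2 (DF1102), 9.78 and 8.03 (DF1406) and 4.23 and 3.33 (DF1501). The order of the strains was the same for each library: DF1102 above DF1406, DF1501 and JG207, with no overlap between strains. The log2 fold change against JG207 was 3.06 (SE 0.35) in DF1102, 2.72 (SE 0.36) in DF1406 and 1.42 (SE 0.39) in DF1501.

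MYCTH_112050 (Xyl3), the GH10 enzyme with a CBM1 module, was the most even of the 4 well-read genes across the deletion strains. It stood at 41.6 and 34.9 RPKM (JG207), 624 and 647 (DF1102), 628 and 576 (DF1406) and 578 and 215 (DF1501). Replicate 1 of DF1501 lay among the DF1406 values, and replicate 2 lay below all the libraries of DF1102 and DF1406. The log2 fold change against JG207 was 4.04 (SE 0.43) in DF1102, 4.03 (SE 0.43) in DF1406 and 3.38 (SE 0.42) in DF1501.

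The comparison of DF1406 with DF1102 sets a strain that carries the Weimberg genes against one that does not. The strains also differ by random insertion sites and in Mtxyl1 reads (mean RPKM 397 in DF1102 and 105 in DF1406). The design cannot tell these apart. JG207 does not enter the difference, only the shared estimate of spread. High values in either strain may have entered the choice of the genes, so the comparison is not free of it. None of the 5 genes was called, by edgeR's quasi-likelihood test (Benjamini-Hochberg adjusted over 8335 genes, with a minimum fold of 1.5), against 12.1% of all tested genes called in either direction. By an unadjusted p under 0.05 the count was also 0 of 5, and DESeq2 called 0. The share of all tested genes by these 2 rules was not computed. For MYCTH_100068 the log2 fold change was 0.05 (95% interval -1.69 to 1.79, edgeR adjusted p = 0.972) and for MYCTH_112050 it was -0.02 (-0.872 to 0.841, edgeR adjusted p = 0.984). A p that misses the threshold does not show equal levels, and differences within these intervals are not excluded. MYCTH_89603 differed by 0.29 (-1.12 to 1.69, edgeR adjusted p = 0.776) and MYCTH_99786 by -0.34 (-0.977 to 0.293, edgeR adjusted p = 0.412).

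MYCTH_49824 was the gene nearest to the threshold between DF1406 and DF1102. Both its DF1406 libraries (499 and 309 RPKM) lay above both of DF1102 (177 and 164). The log2 fold change was 1.30 (SE 0.62, 95% interval -0.09 to 2.70, edgeR adjusted p = 0.159), and the adjusted p over 17 alternatives ranged from 0.00162 to 0.456. The spread in that test is shared by all 4 strains, the 2 distant DF1501 libraries included. In a fit of only the 4 libraries compared the value was 1.31 (edgeR adjusted p = 0.00183). It was 1.31 without DF1501 replicate 1 (edgeR adjusted p = 0.00191) and 1.31 without DF1501 replicate 2 (edgeR adjusted p = 0.00162), and the gene passed the threshold in these 3 fits, which called 14.3%, 13.5% and 13.7% of all genes they tested.

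**Figure D2:**
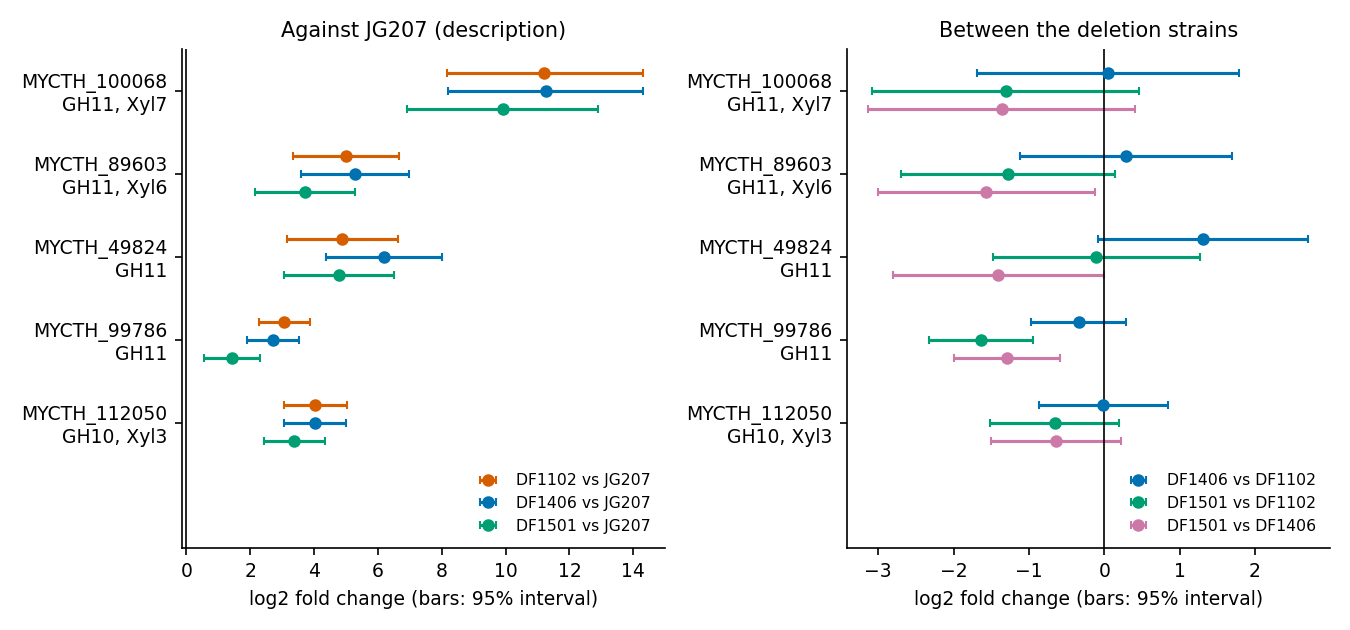
Log2 fold change of each endoxylanase gene in edgeR, with bars for the 95% interval, against JG207 on the left (a description, since the genes were chosen on that contrast) and between the deletion strains on the right. On the right, MYCTH_99786 in DF1501, at -1.64 against DF1102 and -1.30 against DF1406, holds both called differences.

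DF1501 was compared with DF1102 in the same way. MYCTH_99786 fell, at a log2 fold change of -1.64 (SE 0.31, 95% interval -2.33 to -0.946, edgeR adjusted p = 0.00463 with Benjamini-Hochberg adjustment), and both DF1501 libraries lay below both of DF1102. It was the only 1 of the 5 called, and 8.24% of all tested genes were called lower. Its adjusted p over 17 alternatives ranged from 1.25e-05 to 0.0435. The genes were picked partly for high values in DF1102, which favours lower values in the strain set against it.

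The other 4 were not called between DF1501 and DF1102. The log2 fold change was -1.31 for MYCTH_100068 (95% interval -3.08 to 0.459, edgeR adjusted p = 0.223) and -1.28 for MYCTH_89603 (-2.70 to 0.146, edgeR adjusted p = 0.146). It was -0.10 for MYCTH_49824 (-1.48 to 1.27, edgeR adjusted p = 0.910) and -0.66 for MYCTH_112050 (-1.52 to 0.200, edgeR adjusted p = 0.208). For 4 of the 5 genes, MYCTH_49824 being the exception, both DF1501 libraries lay below both DF1102 libraries, which also held for 34.3% of all tested genes.

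In the comparison of DF1501 with DF1406, DF1102 does not enter the difference but does enter the shared estimate of spread. The study looked for genes higher than JG207 in DF1102, DF1406 and DF1501, so high values in DF1406 may also have entered the choice. That would favour lower values in DF1501. Here MYCTH_99786 was again the 1 gene called. Its log2 fold change was -1.30 (SE 0.31, 95% interval -2.0 to -0.594, edgeR adjusted p = 0.0492 with Benjamini-Hochberg adjustment), beside 1.84% of all tested genes called lower. This adjusted p lay just under the threshold, ranged from 0.00295 to 0.209 over 17 alternatives and passed it no longer in 9 of them, the replicate block among these (edgeR adjusted p = 0.0633). Without DF1501 replicate 2 the value was -1.09 (edgeR adjusted p = 0.154).

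MYCTH_89603 differed by -1.56 between DF1501 and DF1406 (95% interval -3.0 to -0.129, edgeR adjusted p = 0.179) and MYCTH_49824 by -1.41 (-2.81 to -0.00987, edgeR adjusted p = 0.210). Both had an unadjusted p under 0.05 but failed the adjustment over all genes. The share of all tested genes under that unadjusted limit was not computed. MYCTH_100068 differed by -1.36 (-3.13 to 0.412, edgeR adjusted p = 0.336) and MYCTH_112050 by -0.65 (-1.51 to 0.215, edgeR adjusted p = 0.347). In 4 of the 5 genes, all but MYCTH_112050, both DF1501 libraries lay below both DF1406 libraries, as did 19.1% of all tested genes.

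The 4 abundant endoxylanase genes were among the genes that differed most between the 2 libraries of DF1501. MYCTH_100068 was 11 times as high in replicate 1 as in replicate 2 by RPKM, and its gap of 3.56 on the log2 CPM scale was the second of 8335 genes. MYCTH_89603 and MYCTH_49824 followed at ranks 8 and 9, each with a log2 gap of 2.67, and MYCTH_112050 at rank 82 with 1.52. The median gap over all tested genes was 0.183. MYCTH_99786, the gene called lower in DF1501, had a gap of 0.43 (rank 1540), smaller than those of the other 4 but wider than that median. In the other 3 strains the widest gap was that of MYCTH_99786 in JG207, 1.23 on 28 and 12 counts, followed by 0.65 for MYCTH_49824 in DF1406.

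**Figure D3:**
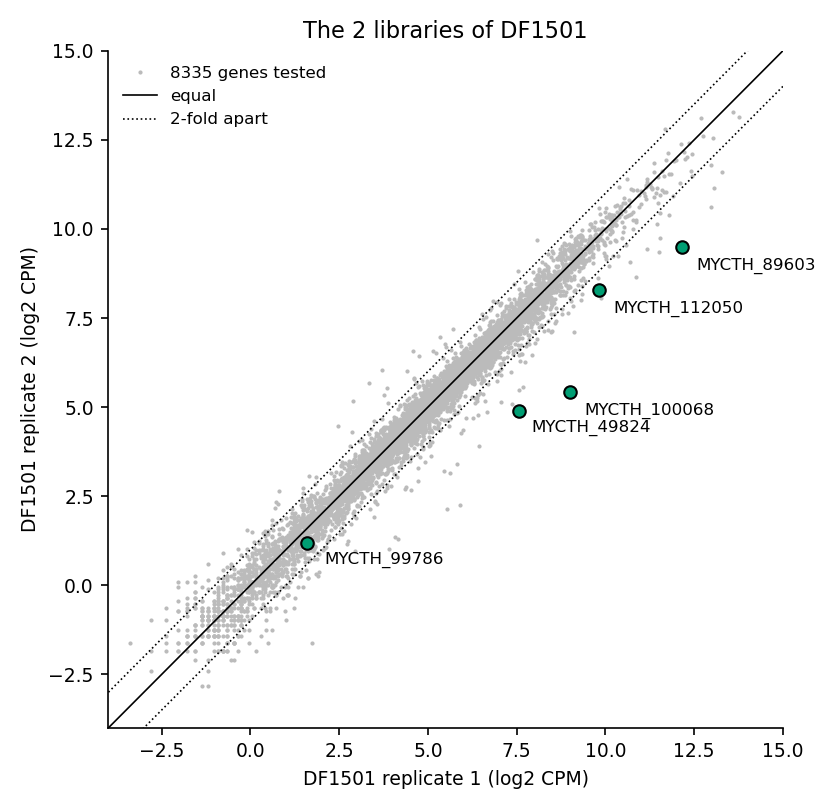
Log2 CPM of the 8335 tested genes in DF1501 replicate 1 (x axis) against replicate 2 (y axis), with the 5 endoxylanase genes as large green points, equality as a solid line and a 2-fold difference as dotted lines. MYCTH_100068, MYCTH_89603, MYCTH_49824 and MYCTH_112050 lie below the lower dotted line, with log2 gaps of 3.56, 2.67, 2.67 and 1.52, and MYCTH_99786 lies within the dotted lines.

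The calls for DF1501 depend on which of its libraries is kept. With replicate 1 left out, so that replicate 2 stands alone and is assumed to vary like the libraries of the other strains, all 5 genes passed the threshold as lower than in DF1102 and as lower than in DF1406. The same fit called 11.1% of all tested genes lower than in DF1102 and 5.12% lower than in DF1406. Against DF1102 the log2 fold changes were then -3.98 for MYCTH_100068, -3.16 for MYCTH_89603, -1.99 for MYCTH_49824, -1.87 for MYCTH_99786 and -1.61 for MYCTH_112050. Against DF1406 they were -4.04, -3.45, -3.30, -1.53 and -1.60 in the same order. With replicate 2 left out, 2 of the 5 were called against DF1102, beside 16.5% of all tested genes in either direction. Against DF1406 edgeR called 0 of the 5 (3 by an unadjusted p under 0.05), beside 2.33% of all tested genes, and DESeq2 was not run on these 7 libraries. MYCTH_99786 was then lower than in DF1102 at -1.43 (edgeR adjusted p = 0.0205) and MYCTH_49824 was higher at 0.69 (edgeR adjusted p = 0.0486), the reverse of its direction with both libraries. The other 3 differed from DF1102 by -0.42 (MYCTH_100068), -0.49 (MYCTH_89603) and -0.09 (MYCTH_112050) and were not called. Against DF1406 the values were -0.48 for MYCTH_100068, -0.77 for MYCTH_89603, -0.62 for MYCTH_49824, -1.09 for MYCTH_99786 and -0.08 for MYCTH_112050. What set the 2 libraries apart was not tested.

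**Figure D4:**
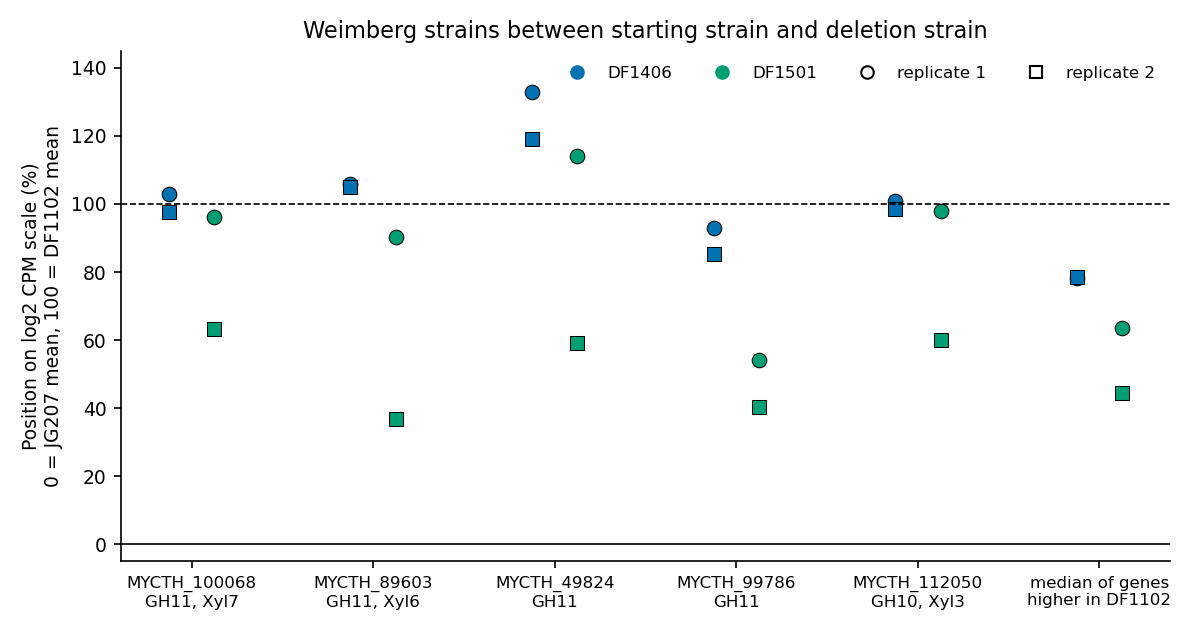
Position of each DF1406 and DF1501 library between the JG207 mean (0%) and the DF1102 mean (100%, dashed line) on the log2 CPM scale, for each endoxylanase gene and for the median of the 849 genes called higher in DF1102 than in JG207. DF1406 libraries lie between 85.2% and 133% for the 5 genes, and DF1501 replicate 2 lies between 36.9% and 63.2%.

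On a scale that puts the mean of JG207 at 0% and that of DF1102 at 100% in log2 CPM, the DF1406 libraries lay close to DF1102. MYCTH_100068 stood at 103% and 97.6%, MYCTH_89603 at 106% and 105%, and MYCTH_112050 at 101% and 98.6%. MYCTH_99786 was below, at 93.0% and 85.2%, and MYCTH_49824 above, at 133% and 119%. The median over the 849 genes called higher in DF1102 was 78.2% and 78.4% in the same libraries. In DF1501 replicate 1 that median was 63.7%, with MYCTH_99786 at 54.3% and the other 4 genes between 90.3% (MYCTH_89603) and 114% (MYCTH_49824). In DF1501 replicate 2 it was 44.4%, and the 5 genes lay at 63.2% (MYCTH_100068), 36.9% (MYCTH_89603), 59.1% (MYCTH_49824), 40.3% (MYCTH_99786) and 60.1% (MYCTH_112050). These positions are a description, because JG207 and DF1102 both entered the choice of genes.

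The other gene of these families on the study's list was the GH10 gene MYCTH_116553 (Xyl4), for which the same caution holds. It stood at 271 and 240 RPKM (JG207), 1665 and 1826 (DF1102), 1845 and 1696 (DF1406) and 1466 and 990 (DF1501). In JG207 it thus lay just below MYCTH_89603, and in every library, those of JG207 included, it stood above MYCTH_112050, the other GH10 gene. Against JG207 its log2 fold change was 2.76 in DF1102, 2.84 in DF1406 and 2.26 in DF1501, each below the value of MYCTH_112050. Its DF1501 libraries differed by 0.66 on the log2 scale, and neither comparison of DF1501 with another deletion strain called it (-0.50 against DF1102, edgeR adjusted p = 0.119, and -0.58 against DF1406, edgeR adjusted p = 0.163).

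Endoxylanases work beside enzymes that remove side groups of xylan and cut its oligosaccharides. Of 9 such genes on the study's list (5 of GH43, and 1 each of GH51, GH62, GH67 and GH115), 9 were called higher than JG207 in DF1102, 8 in DF1406 and 7 in DF1501, and none lower, by the edgeR rule above. The study chose this list on these samples, so the counts are not independent evidence of direction. The median log2 fold change of the list was 2.66, 2.94 and 2.20 in the 3 strains, beside the 4.89, 5.29 and 3.72 of the 5 endoxylanase genes. Those 5 leave out MYCTH_116553, which had 2.76 in DF1102. Without JG207 replicate 2 fewer genes of the list passed in DF1501, and the share of all genes called in that fit was not computed.

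MYCTH_96141, of the alpha-glucuronidase family GH67, stood at 25.5 and 23.5 RPKM (JG207), 290 and 243 (DF1102), 303 and 306 (DF1406) and 183 and 79.5 (DF1501). MYCTH_98003, of the arabinofuranosidase family GH62, stood at 2.43 and 2.53, 17.5 and 14.6, 38.6 and 37.9, and 43 and 8.15 RPKM in the same order of strains. Both thus had DF1501 libraries apart in the same direction as the endoxylanase genes, with log2 gaps of 1.30 and 2.49. MYCTH_2301869 (GH43) had log2 fold changes against JG207 of 3.27, 3.81 and 2.48 in DF1102, DF1406 and DF1501, and a DF1501 gap of 1.62. MYCTH_2308362 (GH115) had 2.96, 2.94 and 2.35, with a smaller DF1501 gap of 0.64.

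The regulator gene xyr-1 (MYCTH_2310145), whose product activates xylanase genes in related fungi, stood at 6.14 and 8.31 RPKM (JG207), 25.9 and 24.2 (DF1102), 19.8 and 20.6 (DF1406) and 22.2 and 21.7 (DF1501). Its DF1501 libraries differed by 0.13 on the log2 scale, where those of MYCTH_100068 differed by 3.56. Between DF1501 and DF1102 its log2 fold change was -0.19 (95% interval -0.468 to 0.0808, edgeR adjusted p = 0.245). Between the DF1501 libraries, the gaps of the endoxylanase genes were wider than that of xyr-1, from 0.43 (MYCTH_99786) to 3.56 (MYCTH_100068). Whether this regulator had a part in those gaps was not tested.

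Over the 8 libraries the 5 endoxylanase genes had like profiles, with MYCTH_99786 the least alike. Their choice as genes higher than in JG207 favours this likeness, so nothing is concluded from it. The Pearson correlation of each gene's log2 CPM with the mean of the other 4 was 0.988 for MYCTH_100068, 0.985 for MYCTH_89603, 0.977 for MYCTH_49824, 0.916 for MYCTH_99786 and 0.996 for MYCTH_112050. The points fall into the libraries of JG207 and those of the deletion strains, which lie apart. Within the 6 libraries of the deletion strains they were 0.982, 0.992, 0.853, 0.754 and 0.978 in the same order. Here DF1501 replicate 2 lies far from the rest, as for MYCTH_100068 at 5.43 log2 CPM against 8.99 to 9.72. The correlations therefore lean on that library and were not recomputed without it. They are descriptions over libraries of shared strains, with no test.

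Of 6458 other genes with a mean of at least 10 CPM, the 5 whose log2 CPM over the 8 libraries was most like the mean of the endoxylanase genes were MYCTH_2299856 (Pearson r = 0.998), MYCTH_40885 (0.998), MYCTH_80104 (0.997), MYCTH_104628 (0.996) and MYCTH_2294783 (0.995). MYCTH_80104 is a GH43 gene of the list above and MYCTH_104628 is listed under GH3, a family that holds beta-xylosidases and beta-glucosidases. MYCTH_2299856 stood at 0.715 and 0.557 RPKM (JG207), 45.2 and 40.3 (DF1102), 48.8 and 48.4 (DF1406) and 25.7 and 5.73 (DF1501). Like MYCTH_100068 it was under 1 RPKM in both JG207 libraries and higher in replicate 1 than in replicate 2 of DF1501.

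The order of genes in the RefSeq annotation was used to see what lies beside the endoxylanase genes, and no member's gene model overlapped a neighbour. Of the 20 genes within 2 positions of a member, 14 were tested, of which 5 were called higher in DF1102 than in JG207 and 0 lower, beside 10.2% of all tested genes called higher. The 5 are named after their values were seen. MYCTH_2305522, next to MYCTH_49824, had the highest value, a log2 fold change of 2.52 (edgeR adjusted p = 4.59e-06), with 9.70 and 10.9 RPKM (JG207) against 59.8 and 58.3 (DF1102). On the other side of MYCTH_49824, MYCTH_49210 had 1.27, and MYCTH_2299115 and MYCTH_122893 beside MYCTH_89603 had 1.07 and 1.20. MYCTH_95473, near MYCTH_112050, had 1.76, and no tested neighbour of MYCTH_100068 or MYCTH_99786 was called.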

How the data were processed

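Total RNA was sequenced on the DNBSEQ platform. The authors filtered reads with SOAPnuke, mapped them to the M. thermophila genome with TopHat2 2.0.12 and, with HTSeq 0.13.5, counted those falling in a single gene. The strand setting is not given in the sources used here, nor whether the libraries of a strain are separate cultures, so p-values measure only the spread between libraries. The deposited counts were tested unchanged, after 3 rows without a gene ID at the end of the JG207 replicate 1 column were left out. The deposited RPKM values, normalised by the authors for gene length and library total, were used for levels and for limma. No per-sample column was left unused (0), and none of the authors' own comparisons was used.

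Counts were fitted in edgeR 4.0.16 (R 4.3.3) with TMM factors, the default filter at a minimum count of 10 and a mean per strain over all 8 libraries, with a common dispersion of 0.0153 and with 4 residual and 5.16 prior degrees of freedom. P-values were Benjamini-Hochberg adjusted over 8335 genes. A call needed an adjusted p up to 0.05 and a minimum fold of 2 against JG207 or 1.5 between deletion strains. Standard errors are the absolute log2 fold change over the square root of F, and 95% intervals use the t distribution with the residual and prior degrees of freedom. Log2 CPM used a prior count of 2. The fit was tested on simulated data with changes planted in DF1501 and compared with DF1102. At an adjusted p up to 0.05 edgeR recovered 38.8% of changes of 1.5-fold, 79.2% of 2-fold and 91.1% of 4-fold. It called 15 of 8135 unchanged genes. A change near 1.5-fold was thus more often missed than found.

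The members and lists were chosen with earlier results of these data known. Genes named are the 5 members, MYCTH_116553, the 4 xylan genes with the largest absolute log2 fold change in DF1102 against JG207, Mtxyl1, xyr-1 and the 5 genes most alike. The families come from the study's list, since the gene table used here carries no product names, so other GH10 and GH11 genes were not analysed here. Of 9110 IDs, 9087 matched that table (RefSeq). Alternatives were RLE factors, library size alone, DESeq2 1.42.0, no filter on low counts, only the 4 libraries compared, a replicate block, limma 3.58.1 on log2(RPKM + 1) with and without the filter and on log2(RPKM + 0.1), and each library left out in turn.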

Additional observations from a re-analysis of the deposited data

Results flagged for a closer look

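MYCTH_99786, the weakly read GH11 gene, differed between the 2 Weimberg strains in its effect against DF1102. The test of the difference itself, DF1501 against DF1406, gave a log2 fold change of -1.30 (edgeR adjusted p = 0.0492, Benjamini-Hochberg over 8335 genes), from 4.23 and 3.33 RPKM in DF1501 and 9.78 and 8.03 in DF1406. Both DF1501 libraries were lower than both DF1406 libraries. High values in DF1406 may have entered the choice of the gene, as said above. The call was lost in 9 of 17 alternatives, with the direction kept in all 17.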

How the results depend on the processing

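Depth was even between libraries, and each strain has 2 libraries. For the members, MYCTH_116553 and the xylan genes, 1002 of the recomputed values stayed the same and 11 reversed. Staying the same means keeping direction and side of the threshold. For members against JG207, where no call was used, it means lying within the spread between libraries. Of the other values, 27 moved beyond that spread, 17 gained a call and 14 lost it. On log2(RPKM + 1), with or without the filter, the members' median in DF1102 against JG207 was 4.67. With only the 4 libraries compared, MYCTH_49824 passed the threshold in DF1406 against DF1102, in a fit that called 14.3% of all tested genes. In DF1501 against DF1102, MYCTH_89603 passed beside MYCTH_99786 by limma on log2(RPKM + 1) or log2(RPKM + 0.1). In DF1501 against DF1406, MYCTH_99786 missed the threshold with only the 4 libraries compared and with the replicate block. It also missed it by limma on log2(RPKM + 0.1) and on log2(RPKM + 1) without the filter. Apart from the 14.3%, the share of all genes called was not computed for these fits. Leaving out each library in turn gave 0 to 1, 1 to 5 and 0 to 5 members called in these 3 comparisons, and 4 to 8 xylan genes in DF1501 against JG207. The reversed values concern differences that were near 0 with all 8 libraries. The reversed value itself was not always near 0, as for MYCTH_49824 below at 0.69 without DF1501 replicate 2. MYCTH_100068 in DF1406 against DF1102 was -0.0117 with library size alone, -0.0149 with the replicate block, -0.0351 by limma on log2(RPKM + 1) with or without the filter, -0.0352 on log2(RPKM + 0.1) and -0.26 to 0.31 without a library. Without a library MYCTH_112050 ranged from -0.0583 to 0.0335 there, MYCTH_49824 in DF1501 against DF1102 from -1.99 to 0.69, and the GH43 gene MYCTH_2127683 in DF1406 against JG207 from -0.14 to 0.48. Apart from the DF1501 libraries named above, the cause was not tested. Same-numbered libraries of 2 strains had correlations of -0.223 to 0.169 over genes, in their deviations from the strain mean. The main fit does not pair libraries by number, and whether same-numbered libraries shared a batch was not tested. The replicate block changed 1 call among the members, that of MYCTH_99786 in DF1501 against DF1406 (adjusted p = 0.0633 in edgeR).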
